A study of Mus musculus with 6 samples.

Results

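The genes described here are 10 core cardiac transcription factor genes, Nkx2-5, Gata4, Gata6, Tbx5, Tbx20, Mef2a, Mef2c, Hand1, Hand2 and Srf, taken by name from 21938 protein-coding genes of GENCODE M21 on mm10. All open chromatin peaks that overlapped a gene body or the 10 kb to either side of it were collected from 6 Omni-ATAC-Seq peak lists and merged where they overlapped, which gave 134 regions at the 10 genes out of 169881 regions in all. Omni-ATAC-Seq uses a transposase that cuts accessible DNA and attaches sequencing adapters to it. The nuclei came from whole hearts of mice at postnatal day 1, were passed through a 2.2 M sucrose cushion and were used at 50000 per library, in 3 groups of 2 biological replicates. The paper chose this cushion to obtain cardiomyocyte nuclei, and describes its yield as nearly pure from marker RNA and phospholamban staining. Input nuclei were from WT C57BL/6J hearts and were not immunoprecipitated. Myc nuclei were from hearts of the genotype Nkx2-5 Cre/+; R26RSun1-Myc-Egfp/+, the label's name for a line with SUN1 fused to superfolder GFP and Myc tags, and were pulled down with a Myc antibody (MAN-IP, a magnet-assisted nuclear immunoprecipitation). The Cre is driven by Nkx2-5 itself, so these mice carry Cre at 1 Nkx2-5 allele. The paper's methods list the driver as Nkx2-5 IRES-Cre and the tag line under a mixed strain name, unlike the C57BL/6J of the WT hearts. The tag marks every descendant of Nkx2-5-expressing cells, which include cardiomyocytes, smooth muscle and endocardial cells. PCM1 nuclei were from WT hearts and were pulled down with an antibody to PCM1, a centriolar satellite protein found around cardiomyocyte nuclei. In the study's scheme the Input is an aliquot of the cushion nuclei and the rest went into the pull-down, so Input and PCM1 libraries may come from the same preparations. The labels do not tie libraries to preparations, and the tests over libraries treat the 6 as independent.

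These factors form a network at the base of heart development. NKX2-5 is a homeodomain protein, GATA4 and GATA6 are zinc finger proteins, TBX5 and TBX20 are T-box proteins, MEF2A, MEF2C and SRF are MADS-box proteins, and HAND1 and HAND2 are basic helix-loop-helix proteins. They bind one another's genes and the genes of the contractile apparatus, often side by side in the same enhancer, and several of their genes are controlled by enhancers spread over introns and flanking DNA as well as by the promoter.

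The peak lists held between 75336 and 131500 peaks. The background in the libraries, taken from the fold and p-value of the peak summits, lay between 0.903 and 1.44 tags in 5 libraries and at 3.96 tags in Input replicate 1, which was thus 4.38 times as deep as PCM1 replicate 2. At sites with the library's own background, the weakest summit called stood 2.78 times above it in Input replicate 1. In the other libraries it stood between 4.16 and 5.86 times above it. The limit was higher where the local background was higher, so a missing peak was only not detectable at that depth and site. Peaks were compared by rank percentile, the share of the peaks of the same library with a weaker q-value, with 0 for no peak. Of the markers of other cell types, all 6 libraries had a peak within 1 kb of a transcription start site (TSS) at 8 of 8 cardiomyocyte, 6 of 8 fibroblast, 8 of 8 endothelial, 7 of 8 smooth muscle and pericyte, 4 of 8 epicardial and 1 of 8 immune genes. At 5 immune genes (Ptprc, Cd68, Csf1r, Adgre1 and Itgam) and at the epicardial gene Msln none had one. Of all protein-coding genes, 59.7% had a TSS peak in all 6 libraries and 28.7% in none, so these counts alone do not show which cell types were present. The libraries thus held accessible marker genes of non-cardiomyocytes in every group, and an open TSS does not tell in which cells of the sample it was open. The paper takes nuclei from the sucrose cushion to be nearly all cardiomyocytes. It reports relatively little accessibility at the fibroblast gene Col3a1 in its tracks of all groups.

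The sequences below carry the main contrasts of the text. They are 201 bases around the summit of a region, read from the plus strand of GRCm38 (mm10), or 150 bases before a TSS, read in the direction of the gene. Capitals mark matches to a motif on either strand: AGATAA for GATA factors, TNAAGTG for NKX2-5, AGGTGT for T-box factors, CATCTG for HAND factors, GGAATG for TEAD factors, the MEF2 box and the CArG box of SRF. First come the strongest printable regions away from the TSS at 9 genes, by mean rank over the 6 libraries, leaving out at Mef2a the region at the TSS of Lysmd4. They are in introns at Gata4, Tbx5, Mef2a, Mef2c and Srf, upstream at Nkx2-5 and Tbx20, and downstream at Hand1 and Hand2.
Nkx2-5 upstream, chr17:26850556-26850756: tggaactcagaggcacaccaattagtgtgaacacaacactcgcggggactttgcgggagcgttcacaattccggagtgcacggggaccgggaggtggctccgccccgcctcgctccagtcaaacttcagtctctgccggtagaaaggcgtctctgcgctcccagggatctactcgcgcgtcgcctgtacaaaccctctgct
Gata4 intron, chr14:63207179-63207379: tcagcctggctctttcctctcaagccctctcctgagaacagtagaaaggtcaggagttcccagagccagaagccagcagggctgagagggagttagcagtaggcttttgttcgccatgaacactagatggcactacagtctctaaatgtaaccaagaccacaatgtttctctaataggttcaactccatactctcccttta
Tbx5 intron, chr5:119857133-119857333: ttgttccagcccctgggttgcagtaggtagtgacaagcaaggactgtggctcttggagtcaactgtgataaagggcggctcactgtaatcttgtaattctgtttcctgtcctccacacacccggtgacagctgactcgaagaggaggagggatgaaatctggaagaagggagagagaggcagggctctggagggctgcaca
Tbx20 upstream, chr9:24777416-24777616: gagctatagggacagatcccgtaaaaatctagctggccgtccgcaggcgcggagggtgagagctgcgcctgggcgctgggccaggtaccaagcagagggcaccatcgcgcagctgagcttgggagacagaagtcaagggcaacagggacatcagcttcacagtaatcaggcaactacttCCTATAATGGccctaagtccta
Mef2a intron, chr7:67259924-67260124: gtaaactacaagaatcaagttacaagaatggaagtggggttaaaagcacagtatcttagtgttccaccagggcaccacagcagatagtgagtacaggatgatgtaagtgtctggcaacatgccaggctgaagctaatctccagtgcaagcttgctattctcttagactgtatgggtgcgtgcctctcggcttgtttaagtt
Mef2c intron, chr13:83565791-83565991: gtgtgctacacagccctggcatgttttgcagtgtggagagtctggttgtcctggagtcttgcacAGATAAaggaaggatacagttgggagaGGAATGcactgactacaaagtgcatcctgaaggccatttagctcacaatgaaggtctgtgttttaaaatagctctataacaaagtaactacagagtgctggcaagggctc
Hand1 downstream, chr11:57820072-57820272: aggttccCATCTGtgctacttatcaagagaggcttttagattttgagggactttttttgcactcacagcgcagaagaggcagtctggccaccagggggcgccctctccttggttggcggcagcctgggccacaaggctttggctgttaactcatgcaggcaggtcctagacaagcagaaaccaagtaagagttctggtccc
Hand2 downstream, chr8:57328625-57328825: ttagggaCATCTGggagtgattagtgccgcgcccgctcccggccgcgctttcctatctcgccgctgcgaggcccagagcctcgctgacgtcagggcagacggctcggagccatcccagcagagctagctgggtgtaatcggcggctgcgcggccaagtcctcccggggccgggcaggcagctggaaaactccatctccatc
Srf intron, chr17:46553211-46553411: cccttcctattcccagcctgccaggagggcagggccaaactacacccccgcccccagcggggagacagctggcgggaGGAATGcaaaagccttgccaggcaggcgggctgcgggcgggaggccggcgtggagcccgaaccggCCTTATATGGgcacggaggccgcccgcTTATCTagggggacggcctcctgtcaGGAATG

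Then come 3 intronic regions that hold several motifs or that differed between the groups, and 2 promoters with a repeated motif. The Tbx5 intron holds a MEF2 box, a GATA match and 2 T-box matches. The first Mef2c intron holds 2 MEF2 boxes and ranked higher in both Myc libraries than in the other 4, and the second was called in no PCM1 library. The 150 bases before the Srf TSS hold 2 CArG boxes and those before the distal Gata4 TSS hold 2 GATA matches, that is, matches for the factor that the gene itself encodes. The 150 bases before a Gata6 TSS, which are not printed, also hold 2 GATA matches. Of 54329 TSSs of protein-coding genes, 0.0092% had 2 or more CArG boxes and 0.291% had 2 or more GATA matches in the 150 bases before them.
Tbx5 intron with MEF2, GATA and T-box matches, chr5:119862547-119862747: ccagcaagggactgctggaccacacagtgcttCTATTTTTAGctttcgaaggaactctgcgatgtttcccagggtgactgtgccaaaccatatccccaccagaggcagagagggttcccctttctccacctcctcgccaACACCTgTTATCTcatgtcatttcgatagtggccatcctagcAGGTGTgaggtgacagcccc
Mef2c intron with MEF2 boxes, chr13:83603916-83604116: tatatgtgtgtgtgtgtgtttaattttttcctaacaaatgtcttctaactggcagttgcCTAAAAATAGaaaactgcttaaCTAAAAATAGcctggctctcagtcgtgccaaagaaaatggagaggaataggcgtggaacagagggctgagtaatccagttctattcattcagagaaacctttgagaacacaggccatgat
Mef2c intron without a PCM1 peak, chr13:83654941-83655141: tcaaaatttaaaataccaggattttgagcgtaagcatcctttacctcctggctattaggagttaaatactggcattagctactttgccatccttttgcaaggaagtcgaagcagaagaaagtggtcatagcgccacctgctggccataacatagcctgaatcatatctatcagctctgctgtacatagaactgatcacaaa
Srf promoter, chr17:46556176-46556325, minus strand: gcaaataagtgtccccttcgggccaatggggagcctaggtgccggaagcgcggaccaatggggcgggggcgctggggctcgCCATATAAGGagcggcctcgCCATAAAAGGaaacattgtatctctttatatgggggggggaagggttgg
Gata4 distal promoter, chr14:63271693-63271842, minus strand: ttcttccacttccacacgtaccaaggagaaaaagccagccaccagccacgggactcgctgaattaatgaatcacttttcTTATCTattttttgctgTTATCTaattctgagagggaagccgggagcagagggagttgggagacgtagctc

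Most of these genes had a TSS peak of high rank, with Hand1 and Tbx5 as the exceptions. At 9 of the 10 genes every library had a TSS peak, against 59.7% of all protein-coding genes, and the remaining 1 was Hand1. The median TSS rank percentile was 93.2 over the 10 genes and 72.3 over all protein-coding genes, and 28.7% of all genes had no TSS peak in any library. Tbx20, the T-box repressor and activator needed for chamber growth, stood highest at 98.2 ± 1.18 (SD, n = 6). It was followed by Mef2a at 97.5 ± 0.724, Srf at 96.2 ± 1.29, Nkx2-5 at 95.1 ± 2.16, Gata6 at 94.3 ± 2.71, Gata4 at 92.0 ± 2.06, Mef2c at 85.1 ± 5.23 and Hand2 at 81.3 ± 10.4. Tbx5, the T-box factor of atria, left ventricle and conduction system, lay far lower at 49.1 ± 9.20, and Hand1, a factor of the left ventricle in the embryo, lowest at 5.34 ± 11.5. The Tbx5 value depended on the setting, with 35.9 in lists of equal length, 15.3 with peaks ranked by fold enrichment and 0 with 200 bp around the TSS, where no library had a peak. Ranked by fold enrichment, the means also fell to 58.8 at Hand2, 63.3 at Gata6, 67.0 at Gata4 and 73.8 at Srf, and lay between 81.9 and 87.7 at Tbx20, Mef2a, Nkx2-5 and Mef2c.

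**Figure D1:**
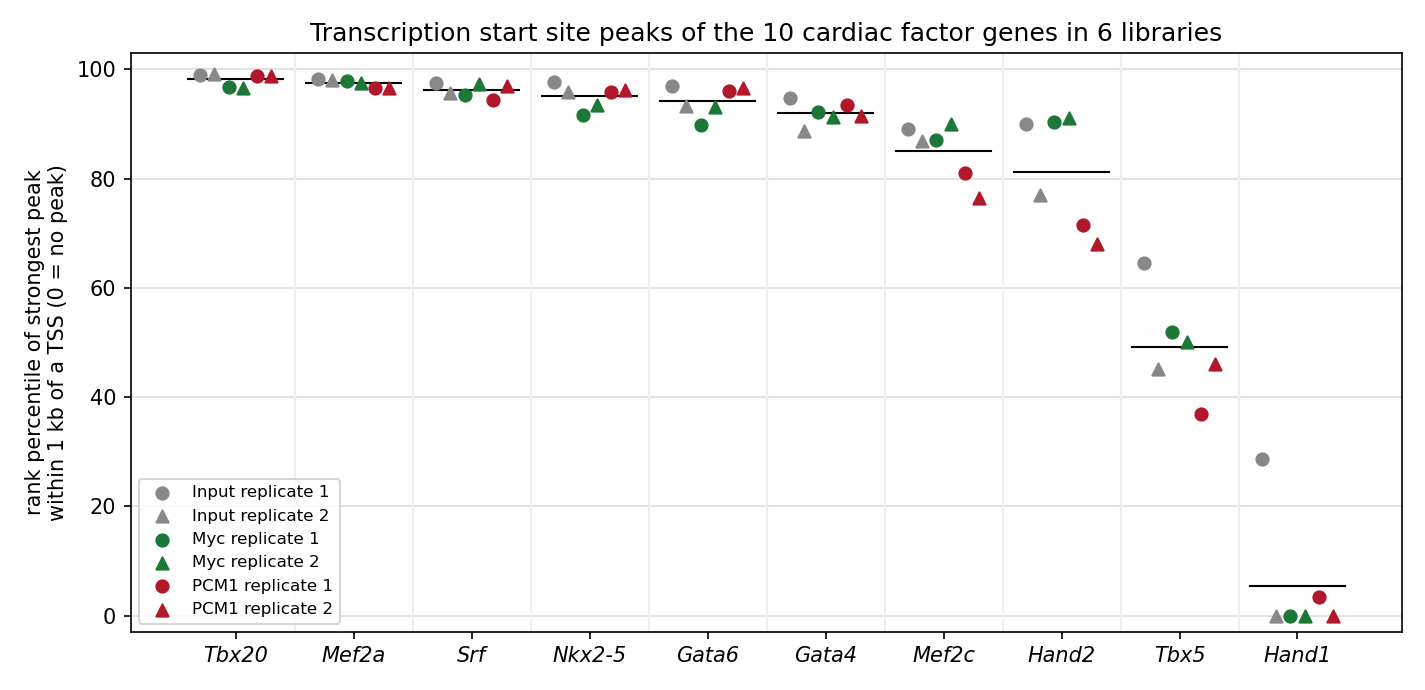
Rank percentile of the strongest peak within 1 kb of a TSS (y axis, 0 to 100, where 0 is no peak) for each gene in each of the 6 libraries, with the group in colour, the replicate by symbol and the mean as a line. The 6 genes from Tbx20 to Gata4 have means between 92.0 and 98.2, Tbx5 has 49.1, and Hand1 has points above 0 in 2 libraries.

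All 45 pairs of genes were compared by an exact permutation test, two-sided, which flips the signs of the 6 differences. The TSS ranks differed in 35 pairs, in each with the same order in 6 of 6 libraries and the smallest p that 6 libraries allow (0.0312, or 0.0402 after Benjamini-Hochberg adjustment over the 45 pairs). Pairs of other protein-coding genes were not counted, so the number does not set these genes apart from others. Of neighbours in the order, Gata4 and Mef2c (6.93 points), Hand2 and Tbx5 (32.2 points) and Tbx5 and Hand1 (43.8 points) differed. The neighbours Tbx20 and Mef2a, Mef2a and Srf, Srf and Nkx2-5, Nkx2-5 and Gata6, Gata6 and Gata4, and Mef2c and Hand2 did not differ beyond their spread, with adjusted p between 0.108 and 0.375 in the exact test. The other pairs that missed the threshold were Tbx20 and Srf, Srf and Gata6, Nkx2-5 and Gata4, and Gata6 and Hand2.

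A second question was whether a gene's most accessible site was its TSS. The TSS peak ranked above the strongest other peak of the locus in 6 of 6 libraries at Tbx20, Gata6, Nkx2-5, Mef2a and Srf (5 genes, against 40.8% of 18624 protein-coding genes with a peak in the locus). The reverse held in 6 of 6 libraries at Hand1, Tbx5, Hand2 and Mef2c (4 genes, against 31.3%). The mean difference was 44.7 ± 13.1 points at Tbx20, 16.8 ± 5.40 at Gata6, 15.3 ± 4.34 at Nkx2-5, 2.44 ± 0.965 at Mef2a and 1.87 ± 1.27 at Srf, and -60.0 ± 10.9 at Hand1, -35.0 ± 8.82 at Tbx5, -10.3 ± 9.73 at Hand2 and -9.66 ± 5.46 at Mef2c (SD, n = 6). Each of these 9 had an exact permutation p of 0.0312, or 0.0434 adjusted over the 18624 genes. At Gata4 the sites were close, with a difference of 0.204 ± 2.27 points, the TSS higher in 3 of 6 libraries and an exact permutation p of 0.844. With peaks ranked by fold enrichment over the local background in place of the q-value, the difference at Mef2a turned to -10.5 points, that at Gata4 fell to -15.3 points, and Gata6 and Hand2 no longer passed the test. With only 2 kb taken to either side of the gene, which leaves out the downstream regions of the HAND genes, the difference turned to 2.52 points at Hand1 and 61.6 at Hand2.

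**Figure D2:**
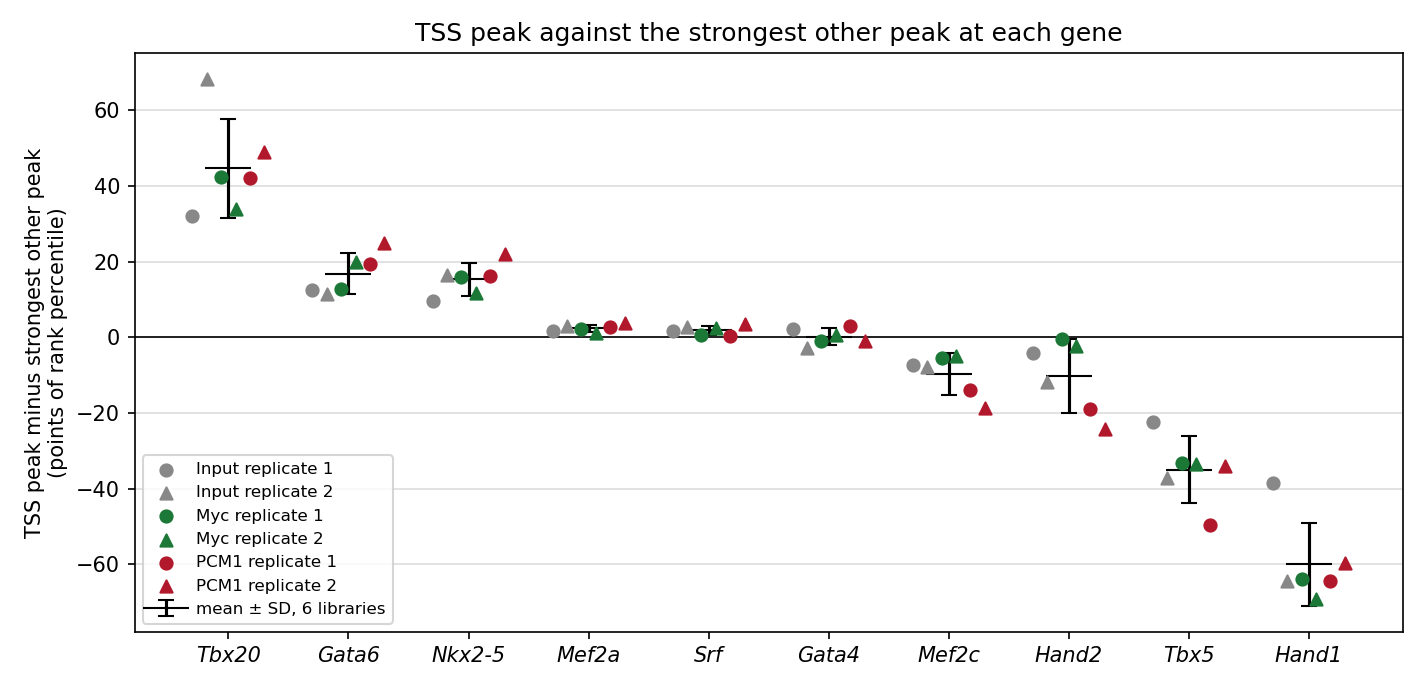
Difference in rank percentile between the TSS peak and the strongest other peak of the locus (y axis, points) for each gene in each library, with the mean and SD over the 6 libraries in black. All points lie above 0 from Tbx20 to Srf, at both signs for Gata4, and below 0 from Mef2c to Hand1.

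Nkx2-5, the homeodomain factor that marks the cardiac lineage from the earliest progenitors, has a compact gene on chromosome 17 with 6 regions, of which 2 were called in all 6 libraries. The main one, chr17:26841117-26841797, covers the TSS at position 26841565 on the minus strand. Its rank percentile was 97.6 and 95.9 for Input, 91.7 and 93.4 for Myc, and 95.8 and 96.2 for PCM1. Both Myc values were the lowest of the 6. No peak of any library lay within 1 kb of the other annotated TSS, at position 26845009. The other region in all libraries was chr17:26849660-26851390, 1731 bp long and 5.65 kb upstream of that second TSS, and the printed window is around its summit. It ranked at 88.2 and 79.5 for Input, 75.8 and 81.7 for Myc, and 79.5 and 74.2 for PCM1, and the groups overlapped. A small region 0.72 kb upstream of the TSS with the main peak, chr17:26842058-26842464, was called at 51.4 and 34.8 in PCM1, 20.5 and 3.58 in Input and 10.5 in Myc replicate 1, and not in Myc replicate 2. Both PCM1 values were above those of the other 4 libraries, a pattern seen in 3 of 134 regions here and 2.01% of the regions of protein-coding loci.

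Gata4 had the largest number of regions called in all 6 libraries of the 10 genes. These were 10 of its 18 regions, a smaller share than the 3 of 4 at Srf, and 1 was called in a single library, and a library held 15.3 ± 1.51 peaks there (SD, n = 6). The regions run through the whole gene, as the map of peaks by library shows. The TSS region chr14:63245113-63246224 ranked between 88.8 and 94.8, with overlap between the groups. The distal TSS at 63271692, whose promoter is printed above with 2 GATA matches, had its own region, chr14:63271364-63272094, in all 6 libraries. This region ranked at 89.8 and 84.2 for Input, 85.7 and 74.4 for Myc, and 71.8 and 80.9 for PCM1. The strongest intronic regions were chr14:63206893-63207478, with a mean rank of 91.0 ± 1.58, and chr14:63255500-63256391, with 86.6 ± 6.19. The first, printed above, lay between 88.4 and 92.5 in the 6 libraries. One downstream region, chr14:63193353-63194080, lies at the TSS of the neighbouring gene Neil2 and cannot be given to Gata4 alone.

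Gata6, which shares cardiac roles with Gata4 and is also a factor of vascular smooth muscle and endoderm, had 11 regions, of which 3 were in all 6 libraries. Its TSS region is shared with the noncoding gene 1010001N08Rik. It ranked at 96.9 and 93.2 for Input, 89.9 and 93.2 for Myc, and 96.0 and 96.6 for PCM1, with both Myc values the lowest, that of replicate 2 (93.18) just under Input replicate 2 (93.22). An intronic region 16.6 kb downstream of a TSS ranked at 84.5 and 81.6 for Input, above 70.5 and 55.4 for Myc, and 61.9 and 49.0 for PCM1. It was the only 1 of the 134 regions where both Input libraries stood above the rest by rank, by rank in lists of equal length and by summit height over background (1.64% of regions of protein-coding loci). A further intronic region, 25.2 kb from a TSS, ranked between 65.5 and 82.2 in all 6 libraries.

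Tbx5 and Tbx20 encode related T-box factors but had opposite layouts. Tbx5 had 15 regions, 6 of them in all libraries, and no strong TSS. The TSS ranks were 64.6 and 45.2 for Input, 52.0 and 50.1 for Myc, and 36.9 and 46.0 for PCM1, with overlap between the groups. Each is the strongest peak near any of the 3 annotated TSSs, and they came from different regions by library. The region chr5:119834977-119835472 was called in all 6 libraries. It ranked at 64.55 and 45.2 for Input, 33.95 and 50.14 for Myc, and 32.85 and 46.05 for PCM1. Its strongest regions were in introns. The region chr5:119857041-119857455, 21.1 kb from the nearest TSS, ranked at 82.2 ± 2.98 and chr5:119877153-119877758, 41.3 kb from it, at 81.6 ± 4.41. The intron printed above with the MEF2, GATA and T-box matches, chr5:119862395-119862842, ranked at 84.4 and 68.2 for Input, 68.2 and 76.7 for Myc, and 47.2 and 72.4 for PCM1, and was called in all 6 libraries. A region 7.17 kb upstream, chr5:119825300-119825665, was called in 5 libraries between 35.9 and 57.0 and not in Myc replicate 2.

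Tbx20 had 17 regions and only 2 in all libraries, the TSS and a site 8.27 kb upstream. The TSS region chr9:24773927-24774858 ranked at 99.0 and 99.2 for Input, 96.8 and 96.6 for Myc, and 98.9 and 98.9 for PCM1. All 6 values were at or above 96.6, and both Myc values were the lowest. The strongest other region, chr9:24777373-24777649, lies 3.21 kb upstream at the TSS of the noncoding gene Gm29824 and reached 66.9, 54.3, 62.6 and 56.8 in the 4 libraries where it was called. Of the remaining regions of Tbx20, 6 were called in 1 library each.

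The MADS-box genes differed among themselves. Mef2a, expressed in many tissues besides the heart, had the narrowest spread of TSS ranks of the 10 genes, from 96.6 to 98.3. Its values were 98.3 and 98.0 for Input, 97.9 and 97.5 for Myc, and 96.7 and 96.6 for PCM1, so that the 3 groups did not overlap although the whole range was under 2 points. Its strongest other region, chr7:67222174-67223083, is at the TSSs of Lysmd4 and 1700112J16Rik. Without regions at other genes' TSSs, the strongest were an intronic site, chr7:67259873-67260376, at 90.2 ± 3.08 and a site past the gene's end, chr7:67230141-67231096, at 89.4 ± 3.60, and the TSS then stood 6.23 ± 2.71 points above the strongest of these in 6 of 6 libraries. Of the 26 regions of Mef2a, 10 were called in a single library.

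Mef2c, which is needed for looping of the heart tube and for the right ventricle, had 23 regions over a gene of 163047 bp with 23 annotated TSSs. Its highest region was not a TSS but the intron chr13:83565644-83566145, 502 bp long and printed above with a GATA and a TEAD match. It ranked at 96.4 and 94.6 for Input, 92.5 and 94.9 for Myc, and 94.9 and 95.2 for PCM1, with a summit between 77.7 and 112 times background. The 6 values were within 4 points and the groups overlapped. The TSS ranks were 89.0 and 86.8 for Input, 87.1 and 90.0 for Myc, and 81.0 and 76.5 for PCM1, the PCM1 values being the lowest. A second strong intronic region was chr13:83531952-83532513, with a mean rank of 85.9 ± 3.85.

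Srf had 4 regions in 27.9 kb, 3 of them in all libraries. The TSS region chr17:46555512-46556576, which holds the printed promoter, ranked at 97.6 and 95.7 for Input, 95.3 and 97.3 for Myc, and 94.4 and 97.0 for PCM1. The intron chr17:46552771-46553502, within 1 kb of the TSS of Mir6976, ranked at 96.0 and 92.9 for Input, 94.7 and 94.9 for Myc, and 94.0 and 93.4 for PCM1. Both regions hold a CArG box in the 201 bases around the summit, the only 2 of the 44 member regions called in all libraries that do. SRF binds CArG boxes, and its own promoter is known as one of its targets.

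The HAND genes are short, and their strongest sites lay past the gene. Hand2, needed for the right ventricle and the cushions, had 9 regions, of which 8 lay within 1 kb of the TSS of another gene and cannot be given to Hand2 alone. The TSS region chr8:57320724-57321296, shared with the divergent noncoding gene Hand2os1, ranked at 90.0 and 77.0 for Input, 90.3 and 91.0 for Myc, and 71.5 and 68.0 for PCM1. Both Myc values were the highest and both PCM1 values the lowest. The region chr8:57327978-57329331, 7.74 kb downstream of the TSS and 1354 bp long, ranked at 94.0 and 88.8 for Input, 90.8 and 93.2 for Myc, and 90.5 and 92.2 for PCM1, with overlap between the groups. Hand1 had 5 regions and a single one in all libraries, chr11:57819934-57820417, 12.0 kb downstream of the TSS. It ranked at 67.2 and 64.3 for Input, 63.8 and 69.1 for Myc, and 67.8 and 59.7 for PCM1. A peak near the Hand1 TSS was called in Input replicate 1 at 28.6 and in PCM1 replicate 1 at 3.45, in separate regions, and not in the other 4 libraries. In lists of equal length it was called in none.

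**Figure D3:**
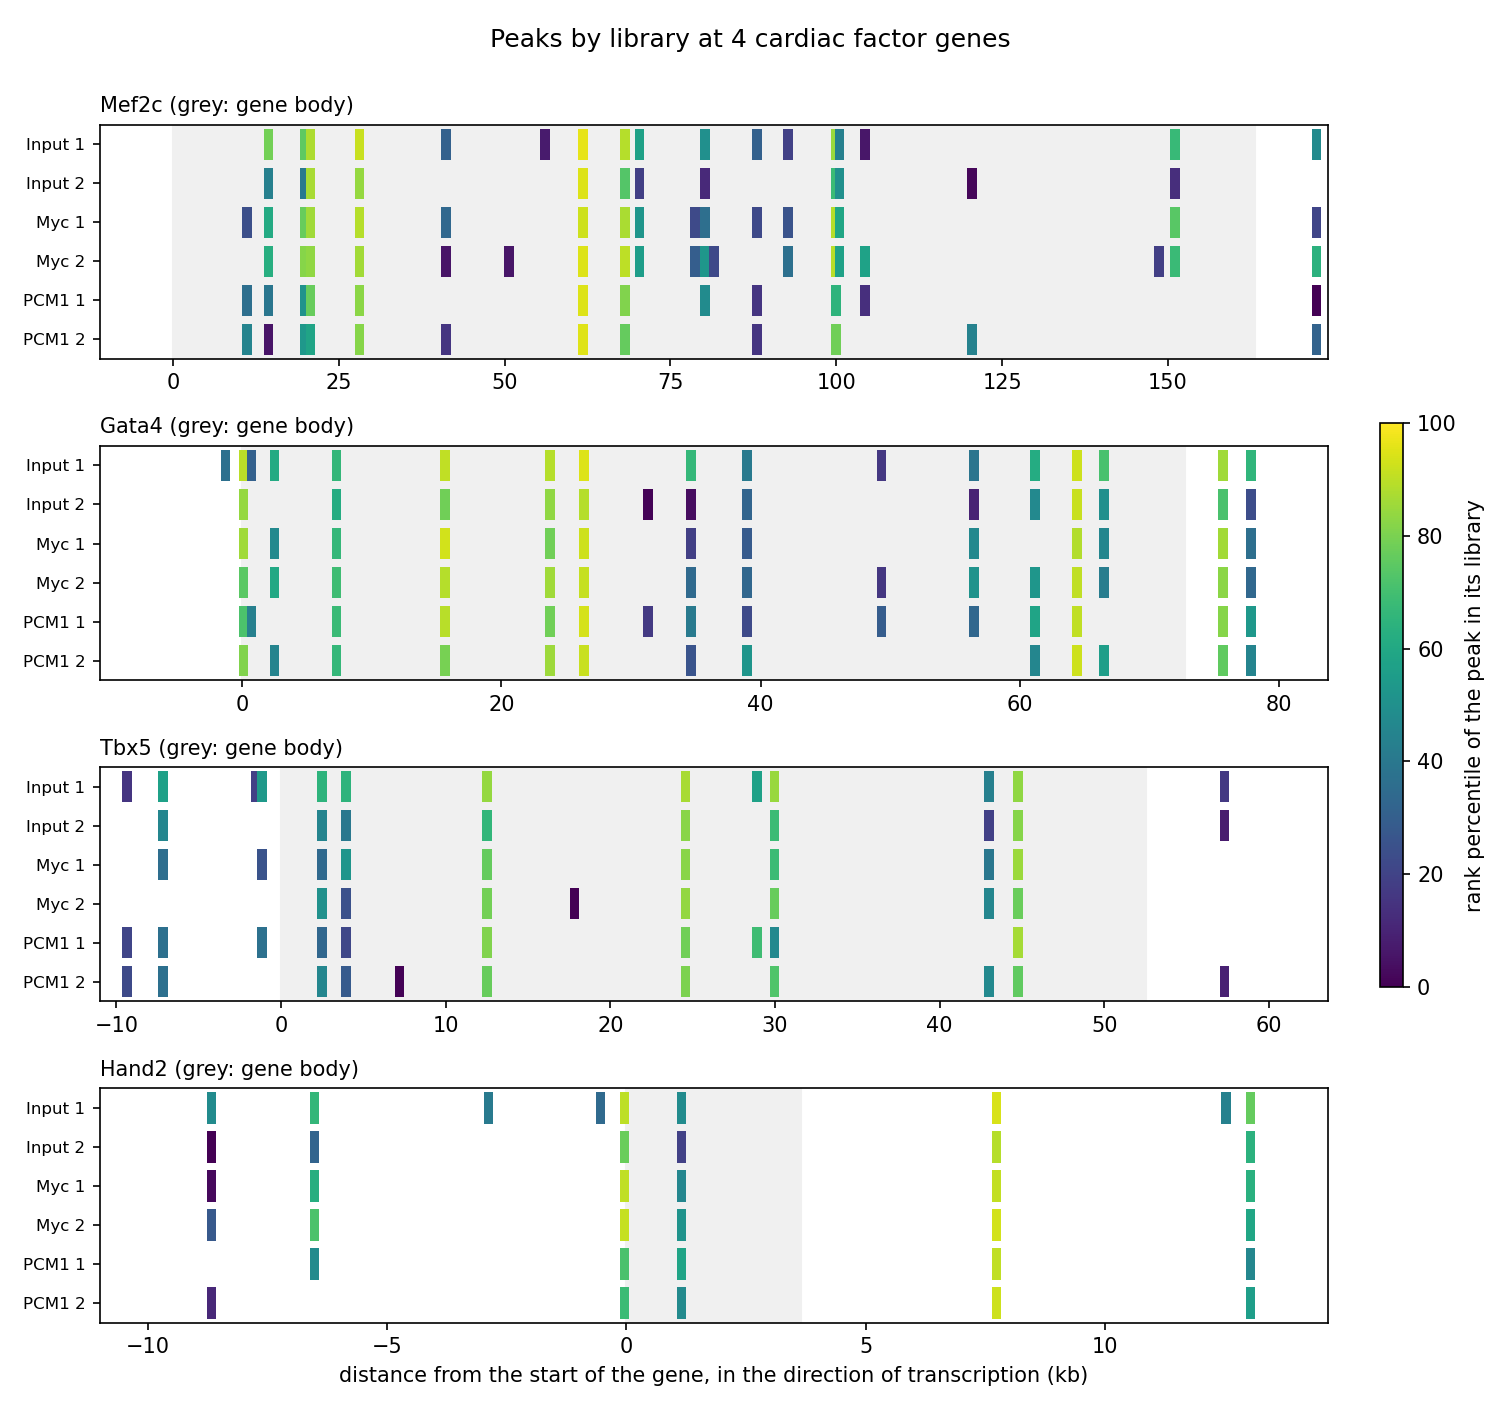
Peaks of each library (rows) at Mef2c, Gata4, Tbx5 and Hand2 by distance of the region's summit from the start of the gene (x axis, kb, in the direction of transcription), coloured by rank percentile in the library; bars are drawn at a fixed width. At Mef2c the strongest peak is in an intron in every library, and at Hand2 it is 7.74 kb past the TSS.

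Over all 10 genes, 44 of the 134 regions (32.8%) were called in all 6 libraries, against 31.4% of 119327 regions at protein-coding genes, and 35 (26.1%) were called in 1 library, against 29.4%. Of these 35, 14 were called in Input replicate 1, the deepest library, and 0 in Input replicate 2. By position, 14 of 24 TSS regions, 19 of 68 intronic regions, 8 of 18 downstream regions, 2 of 17 upstream regions and 1 of 7 exonic regions were in all libraries. Shares by position were not computed over all protein-coding loci, so these counts show no trait of the 10 loci. Of the 134 regions, 16 lay within 1 kb of the TSS of another gene, 8 of them at Hand2. A library held a median of 1.16 peaks per 10 kb over the 10 loci and 0.637 over all protein-coding genes. The densest was Hand2 at 2.82 and the sparsest Hand1 at 0.760.

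The last question was where the 3 preparations of nuclei differed. With 2 libraries a group, no test between groups was made, since 2 libraries against 4 cannot go below a one-sided exact permutation p of 0.0667, and regions were counted where both libraries of a group ranked above or below each of the other 4. At the TSSs, both Myc libraries ranked lowest at Nkx2-5, Gata6 and Tbx20 (3 of 10 genes, against 3.91% of 15643 genes with a TSS peak). Both Myc libraries ranked highest at Hand2 (against 27.5%), both PCM1 libraries lowest at Mef2a, Mef2c and Hand2 (against 30.6%) and both Input libraries highest at Tbx20 and Mef2a (against 4.93%). Input was lowest at 0 genes (against 1.25%) and PCM1 highest at 0 (against 1.98%). In lists cut to an equal length of 75336 peaks, both Myc libraries were again lowest at Nkx2-5, Gata6 and Tbx20 (against 8.93%) and highest at Hand2 (against 31.1%), and both PCM1 libraries lowest at Mef2a, Mef2c and Hand2 (against 26.5%), while both Input libraries were highest at Nkx2-5 and Mef2a (against 7.58%) and both PCM1 libraries highest at Gata6 (against 8.18%).

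The rank percentile depends on how many weak peaks a list holds, so the TSSs were also ranked among all protein-coding genes of the same library. On this scale 64.0% and 69.3% of genes had a weaker TSS than Nkx2-5 in Myc, against 86.5% and 86.8% in Input and 86.4% and 87.6% in PCM1. For Gata6 the values were 60.2% and 68.7% in Myc, 83.1% and 79.7% in Input and 86.9% and 88.8% in PCM1. Tbx20 stood at 82.9% and 82.1% in Myc and between 93.8% and 96.9% in the other 4 libraries. The values of these 3 genes in Myc did not overlap those of the other groups. Gata4 was also lowest in Myc, with 65.6% and 63.4% against 70.3% to 80.2%, as was Tbx5, with 40.0% and 40.0% against 41.1% to 44.0%. Both Myc libraries were thus lowest at 5 of the 10 genes, against 16.9% of all genes with a TSS peak. The lowest value that a peak can have on this scale differs by library. Weak peaks stood at 33.1% in Myc replicate 1 (Nkx2-9) and 31.1% in Input replicate 1 (Lum). They stood at 36.9% in Input replicate 2 (Lyz2) and 36.3% in PCM1 replicate 1 (Rgs5). Tbx5 lay near these values, and by rank percentile its Myc values overlapped those of the other groups. Its TSS peaks also came from different regions by library. Gata4 and Gata6 were highest in PCM1 (against 16.4%), Mef2a highest in Input (against 8.65%, with 0 genes lowest against 8.02%), and Hand2 highest in Myc (against 18.6%) and lowest in PCM1 (against 15.7%). The mean of the 8 cardiomyocyte markers was 61.4% and 63.8% in Myc and between 76.5% and 81.5% in the other libraries. Both Myc libraries were lowest at 6 of them (Myh6, Tnnt2, Tnni3, Pln, Myl3 and Ttn), by the widest margin at Myh6, with 58.2% and 66.7% against 93.6% to 96.1%, and overlapped the others at Actn2 and Ryr2. The mean of the fibroblast markers was highest in Myc, at 46.1% and 48.0% against 37.0% to 46.0%. Among the fibroblast genes, both Myc libraries were highest only at Lum, which had no peak in Input replicate 2 or in PCM1. Genes without a peak count as 0 in these means. This holds also for Col3a1 in PCM1 replicate 2 and for the smooth muscle gene Cnn1 in Myc replicate 1. The mean of the smooth muscle and pericyte markers was 41.1% and 48.7% in Myc and between 48.4% and 53.2% in the others, and that of the endothelial markers 49.9% and 51.7% and between 49.7% and 53.2%. Their part in the result was not tested, and the Myc genotype, strain, Cre allele and antibody cannot be told apart.

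**Figure D4:**
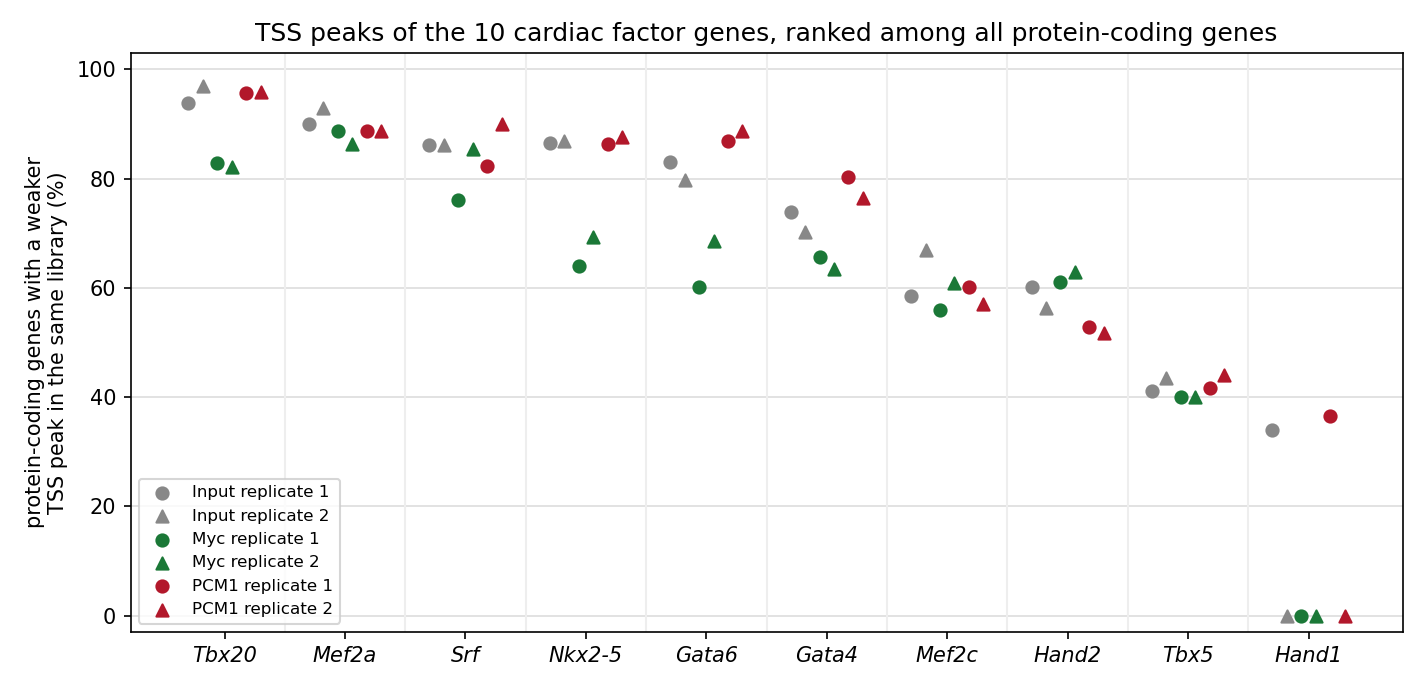
Share of protein-coding genes with a weaker TSS peak in the same library (y axis, percent) for each gene in each of the 6 libraries, with the group in colour and the replicate by symbol. The green Myc points of Nkx2-5 lie at 64.0 and 69.3, under the other 4 points at 86.4 to 87.6, and those of Gata6 and Tbx20 are also apart.

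Over all regions of the 10 genes, both Myc libraries ranked above the other 4 at 12 regions (8.96% of 134, against 10.7% of regions of protein-coding loci) and below at 4 (against 3.24%). Both PCM1 libraries ranked above at 3 (against 2.01%) and below at 14 (against 10.4%), and both Input libraries above at 8 (against 4.81%) and below at 1 (against 0.623%). The balance depended on the scale. In lists of equal length PCM1 was above at 13 (against 7.99%) and below at 8 (against 6.79%), Myc above at 7 (against 9.17%) and below at 10 (against 7.17%), and Input above at 7 (against 4.45%) and below at 2 (against 2.6%). By summit height over background PCM1 was above at 19 (against 9.2%) and below at 9 (against 8.06%), Myc above at 14 (against 16.6%) and below at 6 (against 5.2%), and Input above at 1 (against 3.47%) and below at 7 (against 5.81%). PCM1 thus had more regions below than above by rank and more above than below on the other scales. On all 3 scales together, which are the rank, the rank in lists of equal length and the summit height over background, Myc was above at 4 regions (against 6.44%) and below at 4 (against 2.72%), PCM1 above at 3 (against 1.79%) and below at 7 (against 5.36%), and Input above at 1 and below at 0 (against 0.369%). The 4 regions lower in Myc were the TSS regions of Nkx2-5, Gata6 and Tbx20 and the region 7.17 kb upstream of Tbx5.

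Mef2c held more of the regions low in PCM1 or high in Myc than any of the other genes. By rank, both PCM1 libraries were lowest at 6 of its 23 regions (against 10.4% of regions of protein-coding loci). Both Myc libraries were highest at 6 (against 10.7%). Mef2c also had the most regions after Mef2a, and the counts on the other scales are not given by gene. The intron chr13:83654897-83655370, printed above as the one without a PCM1 peak, ranked at 67.4 and 12.9 in Input and 74.0 and 67.8 in Myc and was not called in PCM1. Its summit stood 28.5 and 22.3 times above background in Myc and 13.7 and 8.79 times in Input. At sites with the library's own background, the weakest summit called in PCM1 was 5.12 and 5.54 times. The limit is higher where the local background is higher. In PCM1 replicate 2, a Tbx5 intronic region at 19.9 times ranked at only 0.658. The missing PCM1 peak thus does not by itself show a closed site. The intron chr13:83604382-83604636 ranked at 43.1 and 49.9 in Input and 59.3 and 57.4 in Myc and was not called in PCM1, and the TSS region chr13:83573981-83574540 at 57.1 and 18.6 in Input and 52.2 and 55.2 in Myc, and not in PCM1. These 3 and the upstream region of Tbx20 at chr9:24780890-24781468 were the 4 regions called in all Input and Myc libraries and in no PCM1 library (against 2.08%). The intron with 2 MEF2 boxes, chr13:83603817-83604242, lies next to the second of them and was called in all 6 libraries, at 89.0 and 89.4 in Myc, 84.8 and 68.0 in Input and 64.8 and 78.2 in PCM1. In the other direction, an intronic region at chr13:83515047-83515468 ranked at 36.1 and 45.2 in PCM1 and 24.0 in Myc replicate 1, and was not called in the other 3 libraries. Mef2c is also expressed in endothelial cells. The endothelial markers' mean TSS rank percentile was 76.0 and 55.6 for Input, 76.6 and 78.5 for Myc, and 60.6 and 65.1 for PCM1. The median over all protein-coding genes was also lower in PCM1, at 65.79 and 64.21, than in Myc, at 80.31 and 79.98. It was 82.21 and 66.25 in Input. Ranked among all genes of the same library, the endothelial mean was instead highest in PCM1, at 53.15% and 53.25%. It was 49.87% and 51.68% in Myc and 49.95% and 49.67% in Input. The part of other cell types in the differences at Mef2c was not tested.

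Both Myc libraries and no other were called at 3 regions (against 1.58%). These were the Mef2c intron chr13:83582632-83582948 at 22.5 and 29.3, a region downstream of Gata6 at 29.6 and 29.8, and one downstream of Hand1, chr11:57827470-57828094, at 10.6 and 6.27. All were weak. The same was seen at 0 regions for Input (against 1.08%) and 0 for PCM1 (against 0.278%), and 0 regions were called in all libraries but those of Myc (against 0.306%) or Input (against 0.0989%).

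Sequence matches in the 201 bases around the summit were counted in the 44 regions called in all libraries. Of the 27 that lay more than 1 kb from any protein-coding TSS, 6 (22.2%) held a GATA match, against 12.7% of 23937 windows of the same kind at protein-coding loci. A MEF2 box was in 3 (11.1%, against 6.51%), a T-box match in 3 (11.1%, against 8.52%), an NKX2-5 match in 3 (11.1%, against 11.2%), a CArG box in 1 (3.70%, against 1.35%), a HAND match in 3 (11.1%, against 17.9%) and a TEAD match in 3 (11.1%, against 16.4%). Of the 17 within 1 kb of a protein-coding TSS, 2 held an NKX2-5 match (against 4.21% of 13572 such windows), 2 a T-box match (against 5.81%), 1 a GATA match (against 2.95%) and 1 a CArG box (against 0.899%), while 0 held a MEF2 box (against 1.19%), a HAND match (against 6.52%) or a TEAD match (against 7.54%). The median GC content was 53.7% in the 27 windows and 65.7% in the 17, against 52.7% and 65.2% over all loci. The matches overlapped in no printed window, although GATA and T-box matches lay 1 base apart in the Tbx5 intron.

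Relatives of these factors from the same families were a mixed group. Of 26 such genes, 11 had a TSS peak in all libraries (against 59.7% of all protein-coding genes), with a median mean rank percentile of 13.1. A TSS peak was found in no library at 8 (Gata1, Nkx2-3, Nkx2-6, Tbx4, Tbx10, Tbx19, Tbx22 and Tbr1), against 28.7% of all protein-coding genes. The highest were Mef2b at 98.5 ± 0.544, Tbx3 at 98.4 ± 1.23 and Mga at 94.8 ± 1.37 (SD, n = 6). Tbx3 is a T-box factor of the conduction system, and its value stands beside 98.2 for Tbx20 and 49.1 for Tbx5. By contrast, 16 of 16 genes for partners of these factors had a TSS peak in all libraries (against 59.7%), with a median of 88.1. Among them, Mrtfa, an SRF coactivator, stood at 99.6 ± 0.294, Zfpm1, a GATA cofactor, at 99.4 ± 0.369 and Hey2, a transcriptional repressor of ventricular muscle, at 97.2 ± 1.29, while Irx4, a ventricular homeobox gene, at 67.0 ± 11.2, Prdm16 at 73.5 ± 10.5 and Isl1, a factor of the second heart field, at 78.1 ± 8.90 were the lowest.

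The gene whose TSS ranks were most like those of a member over the 6 libraries, by mean absolute difference, was Klc2 for Nkx2-5 (0.581 points), Cgnl1 for Gata4 (0.371), Ttn for Gata6 (0.808), Crmp1 for Tbx5 (3.06), Syde2 for Tbx20 (0.154), Gm43552 for Mef2a (0.150), Plcb4 for Mef2c (0.789), A630076J17Rik for Hand1 (0.115) and Zfp426 for Hand2 (0.671). Ttn, the gene of the sarcomere protein titin, was 1 of the 8 cardiomyocyte markers above. Each gene named was the closest of all protein-coding genes, so a near match does not show a link between the genes.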

How the data were processed

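Omni-ATAC-Seq was done by the authors on 6 libraries of mouse heart nuclei. Per the labels and methods, reads were trimmed by fastq-mcf and aligned to mm10 by Bowtie2 2.3.3.1, and the authors marked duplicates with picard 2.2.1, removed blacklisted regions with bedtools 2.7.1, shifted reads for the Tn5 insertion and ran MACS2 2.1.0.20160309 on every library at a q-value of 0.05, without pooling replicates. Each deposited list gives the authors' peak interval and summit, a fold enrichment (ratio of the summit to the local background), -log10 p-values and q-values, and a score, the -log10 q-value times 10 as a whole number. No read counts were used.

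Here, peaks overlapping by 1 bp were merged across libraries, and genes and TSSs were taken from GENCODE M21, with 10 kb to either side of a gene and 1 kb to either side of a TSS. Peaks were ranked in each library by the deposited -log10 q-value. Summit pileup and local background were solved from fold and p-value, and 100% of pileups came out whole within 0.02. The most frequent background was used as depth. Tests were two-sided exact permutation tests with sign flips over 6 libraries, with Benjamini-Hochberg adjustment and a threshold of 0.05. They treat all libraries alike and do not compare groups. The replicates are labelled biological. Named regions at each gene were the TSS region, the strongest other region, and those present in or non-overlapping for 1 group. Further regions that are named or printed were chosen after their values were seen. The members and lists were chosen with earlier results of these data known. The gene most like Srf in its TSS ranks is not reported here. Sequences were read from GRCm38 in RefSeq. The scripts used numpy 2.4.6, pandas 2.3.3, scipy 1.17.1 and matplotlib 3.10.9 under Python 3.11.15, and were tested on simulated data. Alternatives were a q-value of 0.01, lists of equal length, ranks by fold, 2 kb around the gene, 200 bp around the TSS, summits in place of intervals, a coverage of 50% of the region and each library left out.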

Additional observations from a re-analysis of the deposited data

How the results depend on the processing

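The number of genes with a TSS peak in all libraries was 8 or 9 under the alternatives tried, and the number of merged regions lay between 100 and 134. The share of regions in all libraries was 23.9% where a peak had to cover 50% of the region. With ranks by fold, the TSS minus strongest other peak was -15.3 points at Gata4 and -10.5 at Mef2a. With 2 kb around the gene it was 2.52 at Hand1 and 61.6 at Hand2, since their strongest regions lie farther out, 95.1 at Nkx2-5, 62.9 at Tbx20 and 6.23 at Mef2a. With lists of equal length, the regions apart from the rest were 2 below for Input, 7 above and 10 below for Myc, and 13 above and 8 below for PCM1. With ranks by fold they were 17 above and 0 below for Input. With 1 library left out, 5 libraries cannot go below an exact permutation p of 0.0625, so the numbers of genes and of pairs that differed were 0 to 0, which says nothing of stability. The regions apart were then 8 to 67 above and 1 to 19 below for Input, 12 to 29 above and 4 to 9 below for Myc, and 3 to 19 above and 14 to 27 below for PCM1. Input above rose to 67 without Input replicate 2, when the deep Input replicate 1 stood alone for its group, so the counts by group rest on few libraries. No paired analysis was possible because the counts by group come from no test, and the labels do not say which libraries share a preparation.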
